A study of Chlorocebus sabaeus with 18 samples.

Results

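The genes described here lie in the segment of human chromosome 19 from 51700000 to 58600000 (assembly GRCh38), a stretch known for its clusters of zinc finger genes. A gene was a member if its first exon bin began in this segment and its summed normalised count reached 10 in at least 3 libraries. Of 160 single genes in the segment, 116 met the minimum and 44 did not, out of 14969 genes tested in all. A further 34 groups of overlapping genes in the segment were not members. The 761 single genes tested elsewhere on chromosome 19 served as the comparison. The first member spanned 51914675 to 51917703 and the last 58561931 to 58573575. The nearest tested gene outside spanned 51693340 to 51705349. The member just inside the count minimum, at 55529733 to 55537089, had a mean of 5.19 normalised counts and reached 10 in 3 libraries. The gene just outside it, at 52588505 to 52597345, had a mean of 7.24 and reached 10 in 2 libraries. The files pair no gene with a name, so how many members code for zinc finger proteins was not determined, and members are given by their GRCh38 position.

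As background, the largest family of zinc finger proteins in mammals carries a KRAB domain beside an array of zinc fingers that binds DNA. The KRAB domain recruits the corepressor TRIM28, and with it the enzyme SETDB1, which places the repressive mark H3K9me3. Many of these proteins silence retroelements. Their genes arose by duplication in clusters, so that neighbours on chromosome 19 are often similar in sequence, and a long final exon usually codes for the zinc finger array. How reads that match several such copies were counted is not given in the sources used here.

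The RNA came from COS-7, a fibroblast-like line from the kidney of the African green monkey that expresses the large T antigen of the virus SV40. The groups with counts were cells given 60 CGG repeats in the leader of FMR1 (CGG), cells overexpressing TRA2A (TRA_OE), cells with TRA2A knocked down by siRNA (siTRA), cells with both the repeat and the knockdown (CGG_siTRA) and control COS-7 cells (CTL), whose handling the labels do not give, with 3 libraries each. A sixth group, with the repeat and TRA2A overexpression (CGG_TRA), entered only the authors' tables of splicing events. TRA2A is an SR-like protein that regulates the choice of exons, and expanded CGG repeats in FMR1 underlie the tremor and ataxia syndrome FXTAS. No group is named as an empty vector or a control siRNA, so an effect of transfection and one of the named treatment cannot be told apart. The submitters' headings call the TRA_OE group GFP_TRA, and the labels do not say how GFP was used. No other group with counts has GFP in its heading, so an effect of GFP in TRA_OE cannot be told apart from that of TRA2A. All groups are of 1 cell line, nothing says that libraries came from separate cultures, so that a p-value here reflects no more than the spread between libraries. The 3 libraries of a group are lettered a to c because their numbers could not be tied to the sample titles.

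Totals over exon bins ranged from 121142115 to 203957869 counts per library, and members held 483247 to 1130902 of them. The gene on chromosome 7 at 23504780 to 23532041, which is not named in the files, had 204614 ± 17346 normalised counts in TRA_OE, against 17097 ± 166 in CTL (SD, n = 3 each). Its means were 3914 ± 917 for siTRA and 4274 ± 221 for CGG_siTRA, and 16252 ± 701 for CGG. It was matched to TRA2A by this behaviour, so it is no independent check of the labels. Cell type markers could not be checked without gene names. Library b of siTRA stood apart from the others, as described with the region's level.

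Members had a lower median count than genes elsewhere on the chromosome. Their median was 434 normalised counts, against 1284 for genes elsewhere. The upper quartiles were 1729 and 6258, while the lower quartiles were close, at 114 for members and 108 elsewhere. Whether the difference lies in expression was not tested, since these are monkey reads placed on the human genome. Per kilobase of summed bin length the medians were 113 and 299. By mean over the libraries, 29 members were under 100 normalised counts, 44 between 100 and 1000, and 43 over 1000. The members of highest level per kilobase began at 58386400, 58544091, 54200742, 55399745 and 58555712, with 49865, 39819, 37997, 19366 and 16726 normalised counts per kilobase. They are called the 58.386, 58.544, 54.201, 55.400 and 58.556 Mb genes below, after their start, and other members likewise.

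Members also differed in structure. The longest bin of a member had a median of 1544 bases, against 915 bases elsewhere on the chromosome. A bin of 1500 bases or more, called a long bin here, was present in 63 members (54.3%), against 232 of the genes elsewhere (30.5%). In these 63 members the longest bin held a median of 41.1% of the gene's counts, against 9.34% for the longest bin of the other 53 members. There were 64 members on the plus strand and 52 on the minus strand, and bins of 22 members overlapped those of another gene, whose reads cannot be told apart where strand was not used.

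The level of the region relative to the rest of the chromosome differed little between the groups, and siTRA held 1 library that stood apart. Members took 12.4 ± 0.099% of the normalised counts of single genes on chromosome 19 in CGG, 12.5 ± 0.42% in TRA_OE, 11.7 ± 0.455% in siTRA, 11.9 ± 0.117% in CGG_siTRA and 12.3 ± 0.0882% in CTL (SD, n = 3 each). Without the pair of highest genes the means ranged from 7.56% to 7.69% over the 5 groups. A second score was the median log2 level of members, each relative to its own mean over all libraries, minus the same median over genes elsewhere on the chromosome. This score averaged 0.02 ± 0.03 in CGG, -0.02 ± 0.06 in TRA_OE, 0.11 ± 0.18 in siTRA, -0.03 ± 0.02 in CGG_siTRA and -0.01 ± 0.02 in CTL. The differences between group means were at most 0.14 (CGG_siTRA against siTRA, -0.14), and no test was made of a score over chosen genes.

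**Figure D1:**
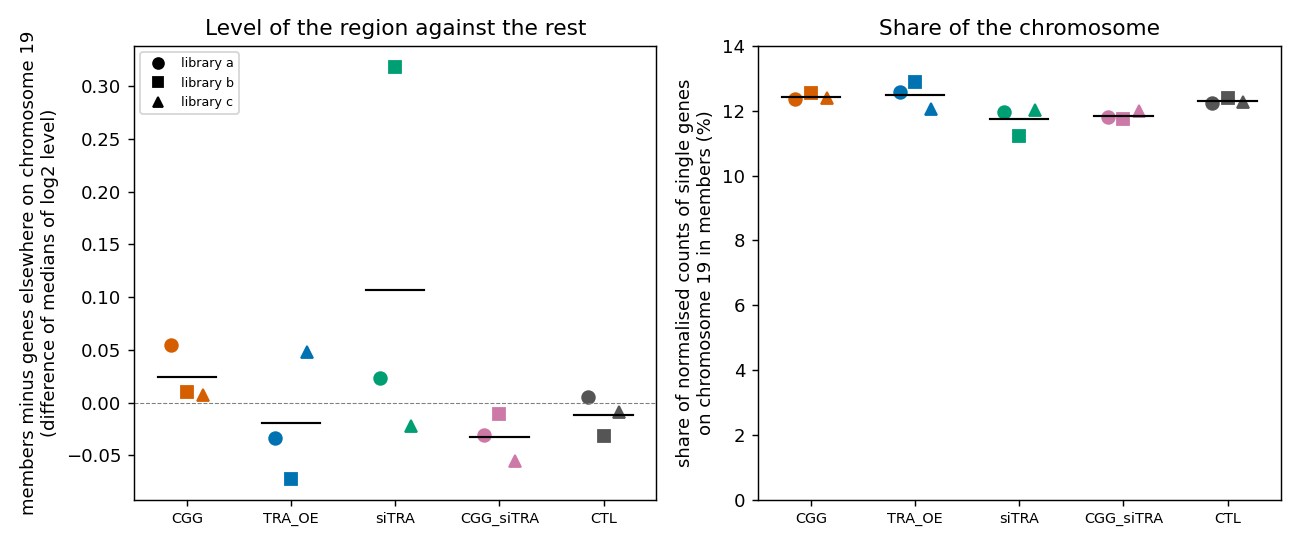
Left, the median log2 level of members minus that of genes elsewhere on chromosome 19 in each library, by group; right, the share of the normalised counts of chromosome 19 held by members, in percent. Points are libraries a, b and c and lines are group means; library b of siTRA lies at 0.32 on the left and at 11.2% on the right, outside the range of the other 14 libraries in both.

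Library b of siTRA had a score of 0.32, while the other 14 libraries ranged from -0.07 to 0.05. In that library the median of genes elsewhere on the chromosome was at -0.24, and the median of members at 0.08. It also had the lowest total of all libraries, 121142115 counts. Without it the siTRA libraries averaged 0.000886 (n = 2), and the difference between siTRA and CTL was 0.01 in place of 0.12. Each named change of siTRA against CTL was also fitted without it, and the 57.231 Mb gene was the only named one whose call was then lost.

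Single members changed in both directions against CTL, at shares at or below those over all genes. Calls were made with edgeR's quasi-likelihood test at an adjusted p under 0.05 (Benjamini-Hochberg over all 14969 genes), with all 15 libraries in 1 fit. In CGG against CTL 12 members rose (10.3%) and 7 fell (6.03%), where over all genes 11.9% rose and 12.3% fell. In TRA_OE against CTL 14 rose (12.1%) and 12 fell (10.3%), with 14.5% and 14.4% over all genes. In siTRA against CTL 15 rose (12.9%) and 19 fell (16.4%), with 18.1% and 19.9% over all genes. In CGG_siTRA against CTL 15 rose (12.9%) and 6 fell (5.17%), with 14.8% and 16% over all genes. The smaller share of falls among members also held for genes elsewhere on the chromosome, of which 6.96% fell in CGG and 7.75% in CGG_siTRA against CTL. The standard error of a log2 change had a median of 0.14 over members and 0.10 over all genes in CGG against CTL.

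The split between directions depended on the scaling in some comparisons. With the authors' scaling factors 9 members rose and 14 fell in CGG_siTRA against CTL, since those factors moved the median log2 change of all genes to -0.11, against 0.01 with TMM. Among genes with a fold change of at least 1.5, 3 members were called in CGG, 7 in TRA_OE, 9 in siTRA and 6 in CGG_siTRA against CTL. These were 2.59%, 6.03%, 7.76% and 5.17% of the members, where 6.33%, 7.32%, 11% and 8.52% of all genes were called at that fold. At that fold 1 member was called in CGG_siTRA against CGG (0.862%, with 1.91% over all genes) and 7 in TRA_OE against siTRA (6.03%, with 8.12%). The median log2 change over the 116 members was 0.03 in CGG, 0.06 in TRA_OE, 0.02 in siTRA and 0.06 in CGG_siTRA. Over genes elsewhere on the chromosome it was 0.02, 0.03, -0.07 and 0.09 in the same comparisons. In CGG the count of 19 calls fell to 10 without CTL library b and to 12 without CGG library b or c, and in TRA_OE the 26 calls fell to 15 without CTL library c and to 17 without CTL library a.

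**Figure D2:**
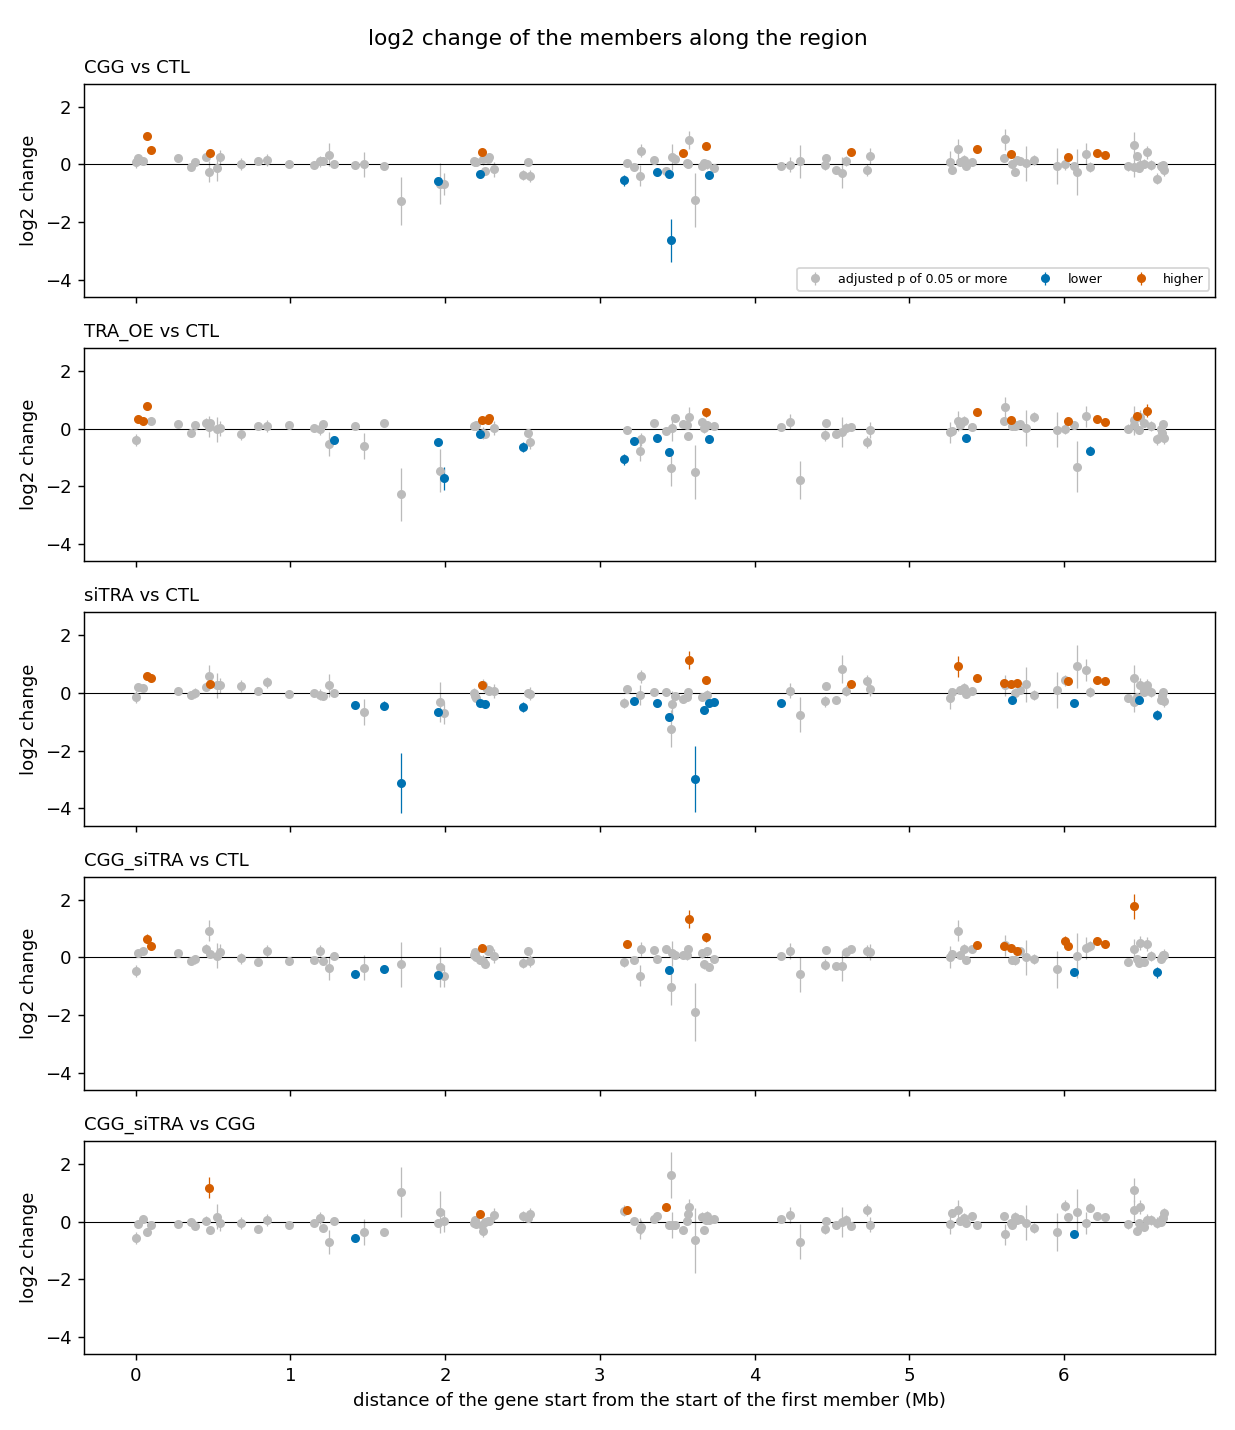
The log2 change of each of the 116 members (y axis, with 1 standard error) against the distance of its start from the start of the first member in Mb (x axis), for CGG, TRA_OE, siTRA and CGG_siTRA against CTL and for CGG_siTRA against CGG. Called rises are orange and called falls blue; the 12 members that start between 53 and 54 Mb of the chromosome hold no called rise in any of the 5 comparisons.

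The largest rise in CGG against CTL was at the start of the region. The 51.991 Mb gene (ENSG00000197619.13, 51991345 to 52008196, minus strand) had 339.9, 325 and 345 normalised counts in the CGG libraries, against 157, 172 and 185 in CTL. No CGG library came near a CTL library, and the log2 change was 0.997 ± 0.14 (SE; edgeR adjusted p = 4.8e-05). Its other groups lay between these, with 312, 307 and 285 in TRA_OE, 276, 219 and 251 in siTRA, and 219, 280.2 and 242 in CGG_siTRA. Their log2 changes were 0.80, 0.60 and 0.65, and each of these edgeR comparisons uses the same 3 CTL libraries. The rise in CGG_siTRA was not called when the gene was represented by its highest bin alone (log2 change 0.41, edgeR adjusted p = 0.114).

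A neighbour of this gene and a gene farther along also rose in CGG. The 52.013 Mb gene (52013325 to 52030240), with 53.7% of its counts in a bin of 3676 bases, had 2060.4, 2070.2 and 2153 normalised counts in CGG, against 1462, 1416 and 1593 in CTL. Its log2 change was 0.51 ± 0.11 in CGG, 0.51 in siTRA and 0.40 in CGG_siTRA, all called by edgeR, and 0.28 in TRA_OE, which was not (adjusted p = 0.0559). The 57.351 Mb gene (ENSG00000131845.14, 57351307 to 57359898, plus strand) had 1163, 1266 and 1307 normalised counts in CGG, against 828, 841 and 933 in CTL. Its log2 changes were 0.55 in CGG, 0.58 in TRA_OE, 0.54 in siTRA and 0.43 in CGG_siTRA, with edgeR adjusted p-values of 0.000329, 0.000177, 0.000208 and 0.00185. A single bin of 2751 bases held 68.3% of its counts.

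Among the named members, 2 pairs of neighbouring genes on opposite strands overlap each other in part, and each pair held genes that changed. Other members of the region overlap a neighbour too. The 54.138 Mb gene (54137728 to 54155681, plus strand) had 6745, 7554 and 6906 normalised counts in CGG, against 9219, 9040.2 and 8870.4 in CTL (log2 change -0.33 ± 0.06, edgeR adjusted p = 0.000415). Its neighbour at 54.155 Mb (54155161 to 54159882, minus strand) had 885, 974 and 899 in CGG, against 729, 725 and 638 in CTL (log2 change 0.42 ± 0.09, edgeR adjusted p = 0.00207). The pair thus moved in opposite directions. In the second pair, the 55.600 Mb gene (55600022 to 55603138, plus strand) had 358, 464 and 384 in CGG, against 282, 272 and 231 in CTL (log2 change 0.64 ± 0.15, edgeR adjusted p = 0.00384). The 55.591 Mb gene (55591371 to 55601970, minus strand) averaged 574 ± 87.2 in CGG and 569 ± 9.34 in CTL, and was not called.

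The fall with the lowest adjusted p in CGG was in the 53.866 Mb gene (ENSG00000179820.15, 53866223 to 53876428, plus strand). It had 2609.9, 2930.2 and 2767 normalised counts in CGG, against 4019, 4261 and 4184 in CTL (log2 change -0.56 ± 0.10, edgeR adjusted p = 0.000286). Every treated library of the other groups was also below every CTL library, and the log2 changes were -0.46 in TRA_OE, -0.65 in siTRA and -0.62 in CGG_siTRA, all called by edgeR. The other falls named in CGG were smaller or less stable. The 55.072 Mb gene (55072020 to 55087919) had 469, 327 and 409 in CGG, against 657, 653 and 489 in CTL (log2 change -0.55 ± 0.18, edgeR adjusted p = 0.0359). Its call was lost without CGG library b or c or CTL library a or b (adjusted p 0.161, 0.0768, 0.127 and 0.108), and its highest bin alone gave a log2 change of 0.04. The 55.621 Mb gene (55620742 to 55624601) averaged 403 ± 49.5 in CGG and 533 ± 20.9 in CTL (log2 change -0.38), and its call by edgeR (adjusted p = 0.0405) was lost without CGG library a or b or any CTL library (adjusted p 0.0762 to 0.164) and with its highest bin alone (adjusted p = 0.114).

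Overexpression of TRA2A came with the largest fall of any named member. The 53.909 Mb gene (53909335 to 53943941), of low level, had 10.7, 35.7 and 16.8 normalised counts in TRA_OE, against 75.2, 78.1 and 55.6 in CTL (log2 change -1.72 ± 0.40, edgeR adjusted p = 0.00381). It averaged 42.7 ± 11.4 in CGG, 41.6 ± 6.21 in siTRA and 40.4 ± 15 in CGG_siTRA, which lay between and were not called. The 55.072 Mb gene fell by 1.06 on the log2 scale in TRA_OE, with 304, 345 and 218 normalised counts against 657, 653 and 489 in CTL (edgeR adjusted p = 0.000372), although with its highest bin alone the call was lost (log2 change -0.82, adjusted p = 0.188). The 58.084 Mb gene (58083843 to 58098363), which overlaps another gene, had 211, 246 and 188 in TRA_OE, against 359.7, 391 and 333 in CTL (log2 change -0.76 ± 0.17, edgeR adjusted p = 0.00241). Its means were 334 ± 88.6 in CGG, 356 ± 15.7 in siTRA and 435 ± 64.4 in CGG_siTRA, and none of these was called against CTL. The 54.415 Mb gene (54415431 to 54436900) had 220.4, 256 and 214 in TRA_OE, against 366, 413 and 296 in CTL (log2 change -0.65, edgeR adjusted p = 0.00923).

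The 55.364 Mb gene (ENSG00000095752.6, 55364389 to 55370463, minus strand) fell in TRA_OE and siTRA by a similar amount. It had 6378, 6827 and 5215 normalised counts in TRA_OE, against 10426, 11021 and 10326 in CTL (log2 change -0.80 ± 0.11, edgeR adjusted p = 3.54e-05). In siTRA it had 6119, 4872 and 6226 (log2 change -0.82 ± 0.11, edgeR adjusted p = 1.43e-05). It averaged 8302 ± 448 in CGG (log2 change -0.33) and 7107 ± 820 in CGG_siTRA (log2 change -0.45). The edgeR call in CGG (adjusted p = 0.0359) was lost without any single CGG or CTL library (adjusted p 0.0629 to 0.12) and with its highest bin alone (adjusted p = 0.0904).

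The rises named in TRA_OE were the 51.991, 55.600 and 57.351 Mb genes and 2 others. The 58.386 Mb gene (58386400 to 58394806), the member with most counts, had 233599, 263106 and 202952 normalised counts in TRA_OE, against 164736, 180907 and 161773 in CTL (log2 change 0.45 ± 0.13, edgeR adjusted p = 0.0152). Its call was lost without TRA_OE library b or CTL library a or c (adjusted p 0.0917, 0.0585 and 0.0597) and with its highest bin alone (adjusted p = 0.0657). The 58.452 Mb gene (58451611 to 58457833) had 217, 230.4 and 201 in TRA_OE, against 128, 149.7 and 138 in CTL (log2 change 0.63 ± 0.22, edgeR adjusted p = 0.0431), and its call was lost without any single TRA_OE or CTL library (adjusted p 0.0645 to 0.139) and with its highest bin alone (adjusted p = 0.134).

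**Figure D3:**
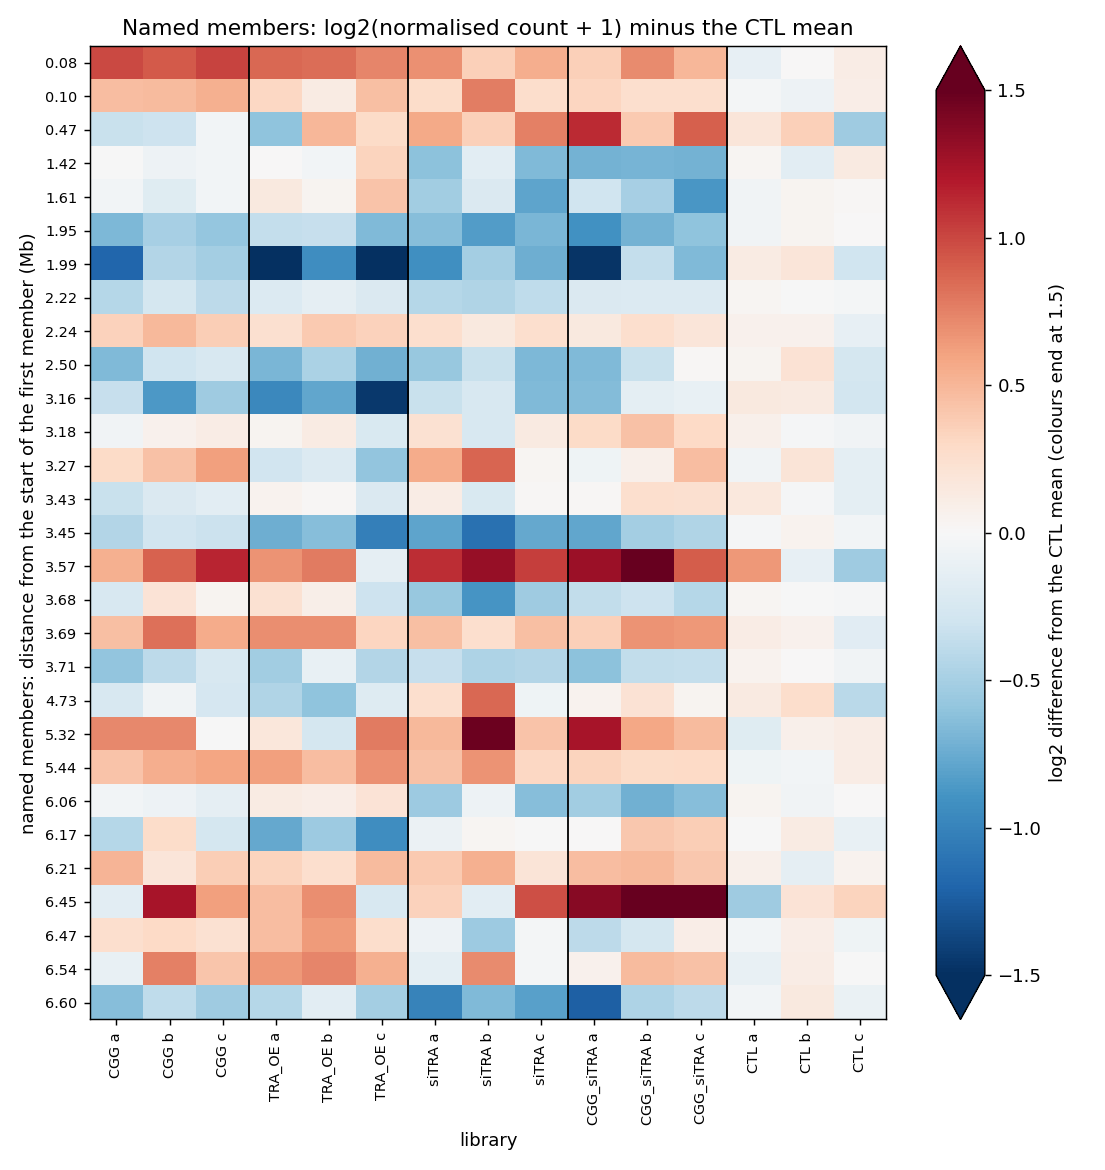
Each row is a named member, marked by the distance of its start from the start of the first member in Mb, and each column a library; colour shows log2(normalised count + 1) minus the mean of the CTL libraries. The row at 0.08 Mb (the 51.991 Mb gene) is above the CTL mean in all 12 treated libraries, and the rows at 1.95 Mb (the 53.866 Mb gene) and 3.45 Mb (the 55.364 Mb gene) are below it in all 12.

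In siTRA against CTL 34 members were called (29.3%), the most of the comparisons with CTL. Over all genes 38% were called there, against 24.2% in CGG. Besides genes given above, the 55.488 Mb gene (55488404 to 55519098) had 98.9, 115 and 94.7 normalised counts in siTRA, against 71.9, 41.8 and 31.2 in CTL (log2 change 1.15 ± 0.31, edgeR adjusted p = 0.00753). It was also higher in CGG_siTRA, with 112, 137 and 86.5 (log2 change 1.34, edgeR adjusted p = 0.00324), although its highest bin alone gave no call there (adjusted p = 0.311). The 57.231 Mb gene (57231140 to 57235547) had 62.1, 124 and 59.6 in siTRA, against 38.7, 46.5 and 47.8 in CTL. Here library b was high, and the log2 change of 0.92 (edgeR adjusted p = 0.0476) became 0.54 without it (adjusted p = 0.249). The call was also lost without any single CTL library (adjusted p 0.0808 to 0.134), with its highest bin alone (adjusted p = 0.813), and with the authors' scaling, limma or only the 2 groups fitted (adjusted p 0.064 to 0.0729).

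Among the falls in siTRA, the 58.514 Mb gene (58513530 to 58520222) had 179, 228 and 205 normalised counts, against 350.005, 398 and 337 in CTL (log2 change -0.77 ± 0.18, edgeR adjusted p = 0.00253). In CGG_siTRA it had 154, 261 and 275 (log2 change -0.53, edgeR adjusted p = 0.0315), and that call was lost without CGG_siTRA library a or CTL library a or b (adjusted p 0.125, 0.0578 and 0.107) and with its highest bin alone (adjusted p = 0.131). The 55.591 Mb gene had 383, 307 and 392 in siTRA, against 579, 568 and 560.1 in CTL (log2 change -0.59 ± 0.15, edgeR adjusted p = 0.00431), and with its highest bin alone the call was lost (log2 change -0.42, adjusted p = 0.127). The 54.415 Mb gene fell by 0.48 on the log2 scale (edgeR adjusted p = 0.0374), a call lost without siTRA library a or c or CTL library a or b (adjusted p 0.0874, 0.115, 0.0943 and 0.162), with its highest bin alone (adjusted p = 0.197) and with only the 2 groups fitted (adjusted p = 0.0552).

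The group with both the repeat and the knockdown had rises named above and 2 further ones. The 58.368 Mb gene (58367618 to 58381060), at a low level, had 42.8, 54.8 and 59.8 normalised counts in CGG_siTRA, against 10.7, 18.6 and 20.5 in CTL (log2 change 1.77 ± 0.44, edgeR adjusted p = 0.0052). Its values were 14.2, 39 and 25.2 in CGG and 20.7, 14.3 and 32.2 in siTRA, below every CGG_siTRA library. The 58.126 Mb gene (58126252 to 58155067), with 74.2% of its counts in a bin of 1951 bases, had 536, 548 and 516 in CGG_siTRA, against 412, 356 and 404 in CTL (log2 change 0.57 ± 0.12, edgeR adjusted p = 0.00109). It was also called in CGG (0.38), TRA_OE (0.34) and siTRA (0.44).

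Set against CGG, which carries the repeat alone, CGG_siTRA had 4 members higher and 2 lower, while 4.14% of all genes were higher and 6.03% lower. Under the factors of the authors the counts were 1 higher and 8 lower. Those factors moved the median log2 change of all genes to -0.093, against 0.0065 with TMM. The count of called members was 2 without CGG library a and 10 without CGG_siTRA library c. The largest fall was in the 53.334 Mb gene (53333749 to 53354869, plus strand). It had 564, 572 and 568 normalised counts in CGG_siTRA, against 920.1, 877 and 901 in CGG (log2 change -0.56 ± 0.12, edgeR adjusted p = 0.00527). A single bin of 3785 bases, at 53351085 to 53354869, held 90.3% of its counts. The 57.977 Mb gene (57977053 to 58002746), which overlaps another gene, had 925, 805 and 851 in CGG_siTRA, against 1288, 1256 and 1205 in CGG (log2 change -0.44 ± 0.11, edgeR adjusted p = 0.0117). Its call was lost without CGG library a or CGG_siTRA library b (adjusted p 0.0555 and 0.0685).

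Both genes were also lower in siTRA than in CTL, a comparison that shares no library with that of CGG_siTRA and CGG. The 53.334 Mb gene had 606, 830.2 and 586 normalised counts in siTRA, against 943, 831 and 1013 in CTL (log2 change -0.41 ± 0.12, edgeR adjusted p = 0.0132). The 57.977 Mb gene had 906, 1262 and 851 in siTRA, against 1365, 1279 and 1337 in CTL (log2 change -0.35, edgeR adjusted p = 0.0159). In both genes siTRA library b was the highest of its group and near the lowest CTL library, and without it the log2 changes were -0.56 and -0.51 (edgeR adjusted p = 0.000881 and 0.000125). These 2 genes were 10.5% of the 19 members lower in siTRA and 100% of the 2 lower in CGG_siTRA against CGG. Over all genes, the 591 lower in both were 19.8% of the 2981 lower in siTRA and 65.4% of the 903 lower in CGG_siTRA against CGG. Another member, the 54.138 Mb gene, was called in both comparisons in opposite directions, with log2 changes of 0.25 in CGG_siTRA against CGG and -0.36 in siTRA against CTL. None of the 15 members higher in siTRA was among the 4 higher in CGG_siTRA against CGG, while over all genes the 319 higher in both were 11.8% of the 2702 and 51.5% of the 619. With so few members called, no difference from all genes is read from these shares.

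Of the 4 rises in CGG_siTRA against CGG, 1 was above 2-fold, in a member of low level. The 55.340 Mb gene (55339853 to 55348120) had 1404, 1651 and 1630.3 normalised counts in CGG_siTRA, against 1099, 1189.5 and 1236 in CGG (log2 change 0.51 ± 0.11, edgeR adjusted p = 0.00551). The 55.091 Mb gene (55090913 to 55117559) had 13064, 14510 and 13183 in CGG_siTRA, against 10332, 11179 and 11557 in CGG (log2 change 0.40 ± 0.11, edgeR adjusted p = 0.0253), and was not called with the authors' scaling (adjusted p = 0.0536), with limma (adjusted p 0.0529 and 0.0546) or without CGG library a or b or CGG_siTRA library b (adjusted p 0.115, 0.0712 and 0.135). The 52.389 Mb gene (52388842 to 52397757), at a low level, averaged 54.7 ± 13.6 in CGG_siTRA and 25.7 ± 3.1 in CGG (log2 change 1.18 ± 0.36, edgeR adjusted p = 0.0441), and its call was lost without any single CGG library or CGG_siTRA library a or c (adjusted p 0.0792 to 0.141), with its highest bin alone (adjusted p = 0.0891), and with the authors' scaling or only the 2 groups fitted (adjusted p = 0.0516 and 0.0507).

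Over all 116 members, the log2 changes of the 2 knockdown comparisons went together weakly, with Pearson's r of 0.031 and Spearman's rho of 0.17. For the 761 genes elsewhere on the chromosome r was 0.20 and rho 0.23, and for all genes r was 0.18 and rho 0.21. Restricted to a mean of 100 or more, r was 0.17 for 87 members, 0.39 for 572 genes elsewhere and 0.33 for 11873 genes in all, and leaving out siTRA library b moved these to 0.18, 0.39 and 0.34. These are correlations across genes, which are not independent replicates, and the difference between the sets was not tested.

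**Figure D4:**
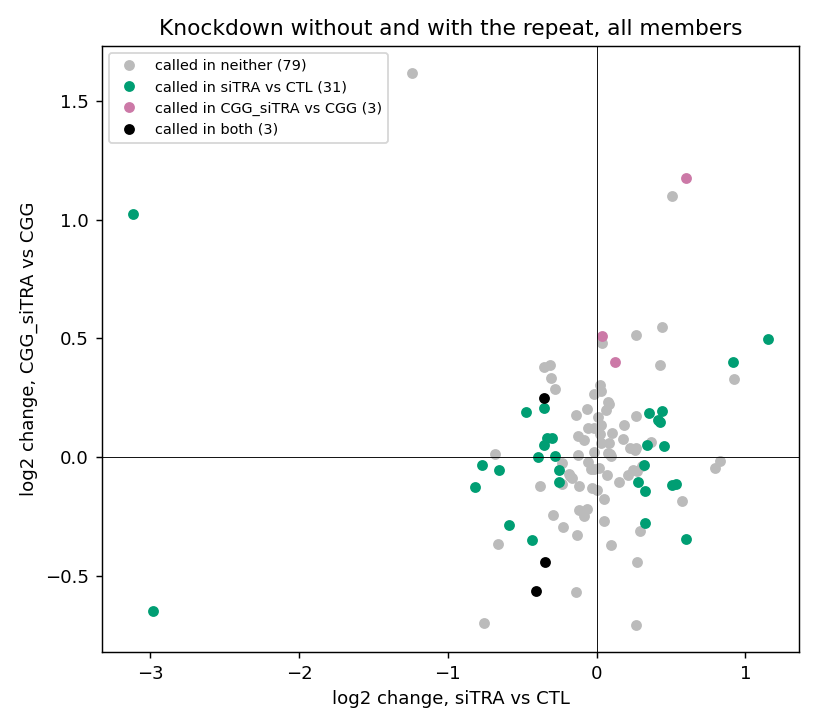
The log2 change of each of the 116 members in siTRA against CTL (x axis) and in CGG_siTRA against CGG (y axis), coloured by where the member was called. Of the 3 members called in both, 2 fell in both (at x and y of -0.41 and -0.56, and of -0.35 and -0.44) and the third, the 54.138 Mb gene, lies at -0.36 and 0.25.

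CGG_siTRA against siTRA, which adds the repeat to the knockdown, gave no called member with edgeR, where 0.0134% of all genes rose and 0 fell. At an unadjusted edgeR p under 0.05, 16 of the 116 members passed, 14 of them higher. Of the 761 genes elsewhere on the chromosome 186 passed, 179 of them higher. Over all 14969 genes 2833 passed, 1579 of them higher. DESeq2 called 3 members and limma 0, and edgeR called 3 when CGG_siTRA library a was left out. The median log2 change was 0.07 over members and 0.17 over genes elsewhere on the chromosome, whose level was low in siTRA library b.

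TRA_OE against siTRA sets overexpression against knockdown. In it 15 members were higher and 8 lower, where 16.8% of all genes were higher and 14.7% lower. Under the factors of the authors 21 were higher and 4 lower. Those factors moved the median log2 change of all genes to 0.073, against -0.0014 with TMM. Without TRA_OE library a edgeR called 14 members in all. The largest named difference upward was in the 53.521 Mb gene (53521024 to 53580269), with 1782, 1651 and 2152 normalised counts in TRA_OE, against 1121, 1383 and 926 in siTRA (log2 change 0.63 ± 0.14, edgeR adjusted p = 0.00225). It averaged 1605 ± 56.3 in CTL. The 53.334 and 57.977 Mb genes, lower in both knockdown comparisons, were higher in TRA_OE than in siTRA by 0.50 and 0.48 on the log2 scale (edgeR adjusted p = 0.00474 and 0.00245). Against CTL their changes in TRA_OE were 0.09 and 0.13 and were not called. The 55.591 and 58.386 Mb genes were also higher, by 0.60 and 0.58 on the log2 scale (edgeR adjusted p = 0.00521 and 0.00249).

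Of the members lower in TRA_OE than in siTRA, the 55.181 Mb gene (55181248 to 55207270) had 65.3, 69.5 and 52.7 normalised counts in TRA_OE, against 119, 147 and 82 in siTRA (log2 change -0.95 ± 0.24, edgeR adjusted p = 0.00554). Its highest bin alone gave no call (adjusted p = 0.636). The 56.643 Mb gene (56643163 to 56655766) had 149, 133 and 178 in TRA_OE, against 242, 372 and 194 in siTRA (log2 change -0.87 ± 0.21, edgeR adjusted p = 0.00438). The 58.084 Mb gene was lower by the same comparison too, with a log2 change of -0.80 (edgeR adjusted p = 0.00154).

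Members were also split by whether they had a long bin. In CGG against CTL, 9 of the 63 members with a long bin rose (14.3%) and 2 fell (3.17%). Of the other 53, 3 rose (5.66%) and 5 fell (9.43%), where over all genes 11.9% rose and 12.3% fell. In CGG_siTRA against CTL the counts were 13 (20.6%) and 4 (6.35%) with a long bin, and 2 and 2 (3.77% each) without. Over all genes the shares there were 14.8% and 16%. In siTRA they were 12 (19%) and 9 (14.3%) with a long bin, and 3 (5.66%) and 10 (18.9%) without. Over all genes 18.1% rose and 19.9% fell in siTRA. In TRA_OE they were 8 (12.7%) and 5 (7.94%) with a long bin, and 6 (11.3%) and 7 (13.2%) without. Over all genes 14.5% rose and 14.4% fell in TRA_OE. Genes elsewhere on the chromosome with a long bin, 232 in all, had more falls than rises in CGG, where 13 rose and 20 fell, and in siTRA, where 29 rose and 47 fell. They had more rises than falls in CGG_siTRA (34 and 27) and TRA_OE (27 and 25), the same direction as the members with a long bin. Of the 529 genes elsewhere without a long bin, 58 rose and 33 fell in CGG, and 91 rose and 32 fell in CGG_siTRA. In siTRA 56 of them rose and 92 fell, and in TRA_OE 75 rose and 47 fell. The median level was 504 normalised counts for members with a long bin and 340.2 for the rest, and the level bears on the chance of a call. No test was made of these splits.

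Calls were also counted in the 8 windows of 1 Mb in which members start. Of the 12 members that start between 53 and 54 Mb, none rose against CTL, and 1 fell in CGG (8.33%), 3 in TRA_OE (25%), 4 in siTRA (33.3%) and 3 in CGG_siTRA (25%), where 12.3%, 14.4%, 19.9% and 16% of all genes fell. Their median log2 change was -0.03 in CGG, -0.42 in TRA_OE, -0.36 in siTRA and -0.35 in CGG_siTRA. Of the 23 members that start between 55 and 56 Mb, 5 fell in CGG (21.7%), 5 in TRA_OE (21.7%), 7 in siTRA (30.4%) and 1 in CGG_siTRA (4.35%), against 2, 1, 2 and 3 that rose. Of the 21 members that start between 57 and 58 Mb, 3 rose in CGG (14.3%), 3 in TRA_OE (14.3%), 6 in siTRA (28.6%) and 6 in CGG_siTRA (28.6%), against 0, 1, 2 and 1 that fell, where 11.9%, 14.5%, 18.1% and 14.8% of all genes rose. In each of the other 5 windows 0 to 4 members rose and 0 to 3 fell in a comparison with CTL. No test was made between windows. These comparisons share the CTL libraries, and neighbouring members may share sequence.

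Use of single exon bins was tested by the authors with DEXSeq, which compares each bin with the rest of its gene. At an adjusted p under 0.05 the authors' deposited table for CGG against CTL called 38 of 1289 member bins (2.95%), where 2% of all bins were called. The authors' deposited table for CGG_siTRA against CTL called 72 of 1153 (6.24%, with 3.87% over all bins). The authors' deposited table for CGG_siTRA against CGG called 40 of 1110 (3.6%, with 3.34% over all bins). Shares were below those over all bins in the authors' deposited tables for TRA_OE and siTRA against CTL and for TRA_OE against siTRA. They were 0.636% (9 of 1416, with 1.32% over all bins), 1.05% (13 of 1237, with 1.83%) and 0.498% (7 of 1405, with 0.595%). Elsewhere on chromosome 19 the same tables called 1.53% of bins in CGG, 4.59% in CGG_siTRA, 1.02% in TRA_OE and 1.34% in siTRA against CTL. There the shares were 2.76% in CGG_siTRA against CGG and 0.239% in TRA_OE against siTRA, the last below the share of member bins. Called bins lay in 16 of 112 members tested in CGG and 23 of 106 in CGG_siTRA against CTL. The share of all genes with a called bin is not given here, so nothing is read from these counts. The bins named here are among the 3 of lowest adjusted p in each table with a mean of 50 or more, and were chosen after their values were seen. Of the 12 such entries in the tables against CTL, 10 were higher and 2 lower in the treated group.

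The leading bins lay in members of high level. In the 54.201 Mb gene the bin at 54206725 to 54206847 (123 bases) took 0.154 ± 0.0105% of the gene's bin counts in CGG, 0.0947 ± 0.0222% in TRA_OE, 0.21 ± 0.0197% in siTRA, 0.14 ± 0.024% in CGG_siTRA and 0.0706 ± 0.00198% in CTL (SD, n = 3 each). All CGG, siTRA and CGG_siTRA libraries were above all CTL libraries. The authors' deposited table gave a log2 change of 1.12 in CGG (adjusted p = 1.04e-14) and 1.59 in siTRA (adjusted p = 3.12e-29) against CTL, and -1.17 in TRA_OE against siTRA (adjusted p = 1.61e-05). The bin at 54206463 to 54206552 (90 bases) took 0.355 ± 0.0073% in CGG and 0.205 ± 0.00809% in CTL, and the authors' deposited table gave it a log2 change of 0.79 (adjusted p = 1.01e-19). These bins lie inside a cassette exon event of the authors' EventPointer tables (54206462 to 54207398), which had a p of 0.991 in CGG against CTL and 0.556 in TRA_OE against CTL in the authors' deposited table. The bins thus hold a very small share of the counts of a gene whose own sum was called in TRA_OE (log2 change 0.37, edgeR adjusted p = 0.0128) but not in CGG (0.26, adjusted p = 0.082).

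Of the other leading bins, 2 were higher in TRA_OE than in CTL. The 86-base bin at 58556230 to 58556315 of the 58.556 Mb gene took 0.403 ± 0.0253% of the gene's bin counts in CGG, 0.369 ± 0.0237% in TRA_OE, 0.315 ± 0.0707% in siTRA, 0.353 ± 0.0358% in CGG_siTRA and 0.211 ± 0.0247% in CTL. The authors' deposited table gave log2 changes of 0.94 in CGG (adjusted p = 1.8e-09) and 0.79 in TRA_OE (adjusted p = 8.62e-07). The 103-base bin at 55092442 to 55092544 of the 55.091 Mb gene took 1.09 ± 0.0274% in CGG, 1.24 ± 0.0572% in TRA_OE, 1.07% to 1.26% in the siTRA libraries, 1.18 ± 0.0515% in CGG_siTRA and 0.791 ± 0.0574% in CTL, with no overlap between any treated group and CTL. Its log2 change in TRA_OE was 0.63 in the authors' deposited table (adjusted p = 3.57e-05).

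A pair of leading bins was lower than in CTL. The 77-base bin at 55404402 to 55404478 of the 55.400 Mb gene took 16.3 ± 0.255% of the gene's bin counts in CGG_siTRA and 18.4 ± 0.164% in CTL, with no overlap, and the authors' deposited table gave it a log2 change of -0.14 (adjusted p = 1.02e-23). The 85-base bin at 58548777 to 58548861 of the 58.544 Mb gene took 0.125 ± 0.0141% in TRA_OE and 0.171 ± 0.00383% in CTL, also with no overlap, and its log2 change was -0.42 in the authors' deposited table (adjusted p = 0.000101). In CGG_siTRA against CGG the leading bins went both ways. The 172-base bin at 58388246 to 58388417 of the 58.386 Mb gene took 2.53 ± 0.126% in CGG_siTRA and 2.11 ± 0.0439% in CGG, with a log2 change of 0.22 in the authors' deposited table (adjusted p = 2.53e-06). The 138-base bin at 58550147 to 58550284 of the 58.544 Mb gene took 3.36 ± 0.0725% in CGG_siTRA and 3.72 ± 0.0824% in CGG, with a log2 change of -0.15 in the authors' deposited table (adjusted p = 9.52e-06).

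**Figure D5:**
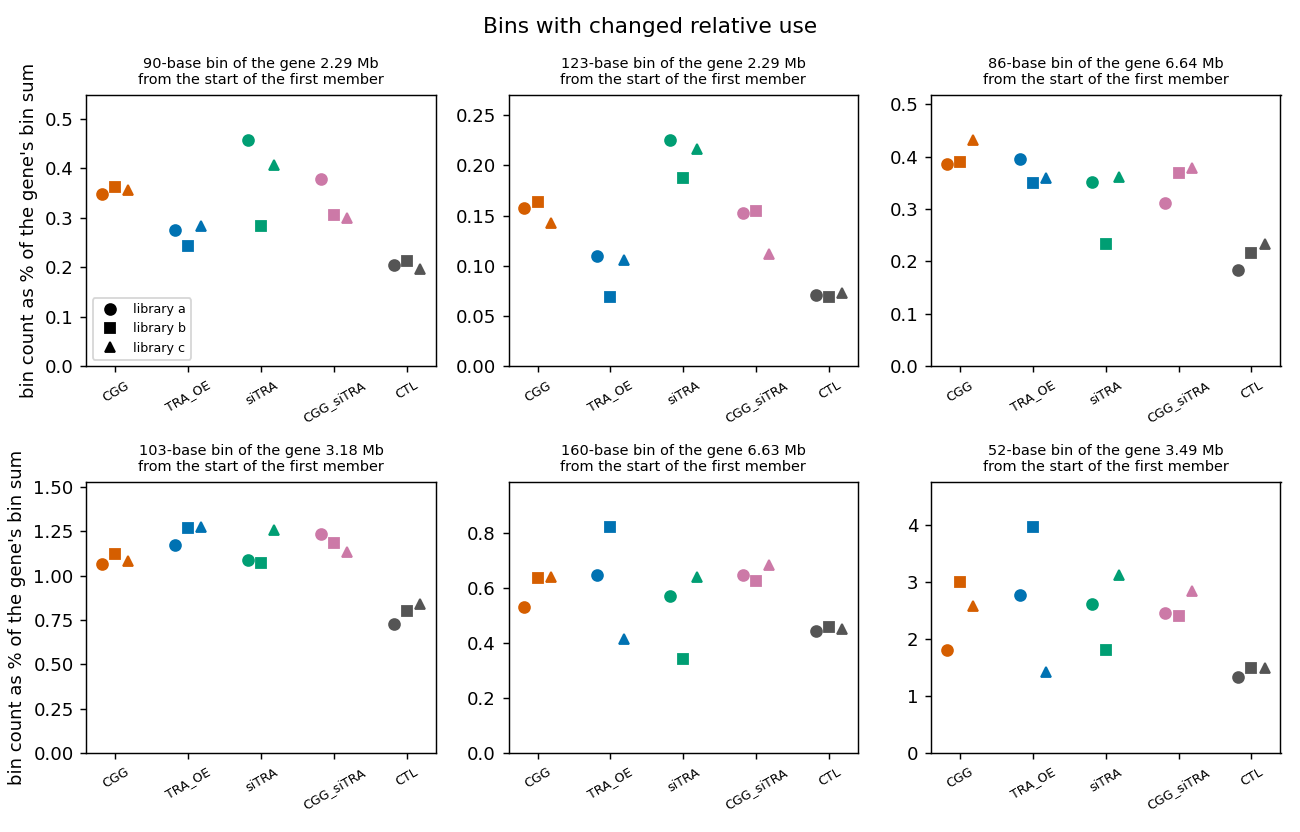
The count of 6 exon bins as a percent of the bin sum of their gene (y axis) in each library, by group; each panel names the bin's length and the distance of its gene from the start of the first member. In the 90-base, 86-base and 103-base bins every treated library is above every CTL library. The margin is narrow in the 86-base bin (siTRA library b at 0.234%, CTL library c at 0.233%). In the 160-base and 52-base bins TRA_OE library b is the highest and TRA_OE library c lies within or below the CTL range.

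In 2 bins near the annotated start of their gene the libraries of a group differed widely. The 160-base bin at 58544938 to 58545097 of the 58.544 Mb gene took 0.652 ± 0.0284% of the gene's bin counts in CGG_siTRA and 0.45 ± 0.00803% in CTL, with a log2 change of 0.53 in the authors' deposited table (adjusted p = 1.96e-26). In TRA_OE it ranged from 0.412% to 0.823%, and in siTRA from 0.343% to 0.641%. The 52-base bin at 55407720 to 55407771 of the 55.400 Mb gene took 2.57 ± 0.233% in CGG_siTRA and 1.44 ± 0.0916% in CTL, with a log2 change of 0.88 in the authors' deposited table (adjusted p = 8.25e-17). In TRA_OE it ranged from 1.41% to 3.97%, and in siTRA from 1.8% to 3.13%. Library b was the highest of TRA_OE and the lowest of siTRA in both bins.

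Few of the splicing events tested by the authors lay in the region. Of the 6311 events in each of the authors' EventPointer tables, 18 lay in 14 members. In the authors' deposited table for CGG against CTL, 1 of the 18 had a p under 0.05, a cassette exon of the 58.556 Mb gene at 58556379 to 58556892 (p = 0.0171), where 7.68% of all events did. In the authors' deposited table for CGG_TRA against CGG_siTRA, 1 did, a cassette exon of the 58.386 Mb gene at 58388245 to 58393359 (p = 0.0244), where 8.87% of all events did. The authors' deposited tables for CGG_TRA against CGG, CGG_siTRA against siTRA and TRA_OE against CTL had none, where 8.13%, 6.31% and 8.18% of all events did. These p-values are not adjusted, and no event of a member had a p under 0.01.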

How the data were processed

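The labels' protocols give DNase-treated total RNA in ribosomal-RNA-depleted libraries. Per the submitters' processing notes, cutadapt 1.14 trimmed the reads and STAR 2.5.2 placed them on human GRCh38.p10; DESeq2 is listed with neither version nor role. The cells are of the green monkey, so positions are those of the human reference, and reads that differ too much between the species may be missing.

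The authors deposited raw counts per exon bin in DEXSeq tables, beside p-values (raw and adjusted) and the log2 change in the relative use of a bin, and a table of normalised bin values, a signal scaled by 1 factor per library, per the file headers. For TRA_OE and siTRA against CTL the heading of the log2 change in bin use names CTL first. The values are printed here as treated over CTL throughout. The authors' EventPointer tables hold p-values and changes in percent spliced in as a fraction. The direction of that change in percent spliced in is not stated and it is not used. Multiplying the normalised values by the factors gave values within 0.1 of a whole read in 100% of cells, equal to the deposited counts wherever both were listed.

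Bins were summed to genes; a read that spans several bins counts in each. Genes were tested with edgeR 4.0.16 under R 4.3.3 (TMM, quasi-likelihood test, 5 group means, Benjamini-Hochberg over 14969 genes); SE is the size of the log2 change divided by the square root of F. The edgeR test was also run on data simulated with the levels and spread of these libraries. Alternatives were the authors' scaling factors, DESeq2 1.42.0, limma 3.58.1 with a pseudocount of 1 or 5, no filter, the 2 groups alone, the highest bin in place of the sum, and each library left out. Named members are up to 5 rises and 5 falls per comparison with CTL and up to 3 of each in the others, all called at 0.05, with a higher group whose mean was at least 50 and whose libraries all lay outside the range of the lower group. Lists of the KRAB pathway and of cell type markers could not be used because no gene name is paired. The members and lists were chosen with earlier results of these data known. No columns of other samples were present.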

Additional observations from a re-analysis of the deposited data

Results flagged for a closer look

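The effect of the knockdown in the presence of the repeat (CGG_siTRA against CGG) was compared with its effect in the absence of the repeat (siTRA against CTL) by an interaction term in the edgeR fit, added after the data were examined. Of the 116 members 13 passed an adjusted p of 0.05, 7 above and 6 below 0, where 19.4% of all genes passed. Among the named members the difference between both effects was -0.95 on the log2 scale for the 51.991 Mb gene (edgeR adjusted p = 0.00283), whose changes were -0.35 with the repeat and 0.60 without it. For the 57.351 Mb gene it was -0.65 (edgeR adjusted p = 0.00217), for the 52.013 Mb gene -0.62 (adjusted p = 0.00758) and for the 54.155 Mb gene -0.38 (adjusted p = 0.0417). It was positive for the 53.866 Mb gene (0.60, edgeR adjusted p = 0.00461), the 54.138 Mb gene (0.60, adjusted p = 6.9e-05), the 55.364 Mb gene (0.69, adjusted p = 0.00432) and the 55.340 Mb gene (0.47, adjusted p = 0.0428). Except for the 55.340 Mb gene, these members were called in siTRA against CTL, and their mean in CTL lay outside the range of the means of all 4 treated groups. The change in siTRA against CTL includes any effect of transfection, while CGG_siTRA and CGG are both treated groups. A change shared by all treated groups therefore also enters the interaction term. It cannot be told apart there from an effect of the knockdown that differs with the repeat.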

How the results depend on the processing

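Counts of called members moved by over 1.5 times in few settings. In CGG against CTL the 19 calls became 35 with only the 2 groups fitted and 10 to 16 with a library left out. In TRA_OE against CTL the 26 became 16 with the highest bin and 15 to 21 with a library left out. In CGG_siTRA against CGG the 6 became 11 with limma at either pseudocount and 2 to 10 with a library left out. In CGG_siTRA against siTRA the 0 became 3 with DESeq2 and 0 to 3 with a library left out. In TRA_OE against siTRA the 23 became 12 with only the 2 groups fitted and 14 to 27 with a library left out. The difference in score between members and genes elsewhere became, with the mean over genes, -0.016 in CGG against CTL (0.036 with the median, and 0.012 to 0.045 with a library left out), -0.043 in CGG_siTRA against CTL (-0.020 with the median) and -0.027 in CGG_siTRA against CGG (-0.056 with the median). The change of the 55.072 Mb gene in CGG against CTL turned to 0.035 with its highest bin (adjusted p = 0.972). The causes were not tested. Of 663 values of the 51 named changes under the alternatives, 594 kept direction and call, 68 lost the call and 1 turned; 35 changes were called in every alternative. No paired analysis was possible because the count columns carry no replicate numbers of the labels. Low counts limit the 29 members under 100 normalised counts. Of these, 1 was called in CGG (3.45%), 1 in TRA_OE (3.45%), 4 in siTRA (13.8%) and 2 in CGG_siTRA (6.9%) against CTL. For genes elsewhere on the chromosome under 100 normalised counts the shares were 5.82%, 10.6%, 10.1% and 11.1%.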
